A study of Mus musculus with 2 samples.

Results

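The mirtron-type miRNAs numbered from miR-6896 to miR-7119 made up 43 of the 101 rows of a deposited list that pairs mouse miRNA gene transcripts with mature miRNAs. They were chosen by name: a row belonged to the set when its annotation gave a mature mouse miRNA with a number in that block, with 5 numbers left out (miR-6970, miR-6971, miR-6973, miR-6974 and miR-6975). Below, any rows and loci of these 5 numbers count with the other rows and as outside the block. The 43 rows named 43 distinct miRNAs, from miR-6900-5p to miR-7115-5p, at 43 loci in 42 host genes. The list comes from an RNA immunoprecipitation and sequencing study of nucleolin, an abundant RNA-binding protein of the nucleolus, in spleen CD4+ T cells of wild type C57 mice. Both libraries came from such cells, described as naïve before they were stimulated through CD3 and CD28, and were made with Illumina's TruSeq small RNA kit. The NCL sample is the nucleolin immunoprecipitate and the Input1 sample is read here as the input, although the design text names IgG as the second antibody. Each group has 1 sample, and whether animals were pooled is not stated in the labels.

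The list holds no value for either sample. No miRNA can be compared between the nucleolin sample and the input, no p-value between them exists, depth is unknown, and the markers of CD4+ T cells could not be read. What follows describes which mirtron-type loci the list names and how these compare with loci of the same numbers that it does not name. No test of that comparison was run, since loci are not replicates of a condition and neighbouring loci share transcripts.

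Most miRNAs are cut from a hairpin in the nucleus by Drosha and its partner Dgcr8. A mirtron takes another route: the hairpin is a short intron, or the end of a longer one, and at least 1 of its ends is made by the spliceosome when the host transcript is spliced. In a conventional mirtron both ends of the hairpin are splice sites. In a tailed mirtron only 1 end is a splice site, and the rest of the intron is trimmed away, from the 5′ side when the hairpin sits at the end of the intron and from the 3′ side when it sits at the start. Introns begin with GU and end, after a stretch rich in C and U, with AG, so a 3p arm that ends at the splice site carries those letters.

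The label mirtron-type was checked against the annotation. The miRNA gene had an end within 3 nt of a splice site of its host in 42 of 43 loci, and in each of these 42 the end lay exactly on it. In 40 of the 43 the last base of the miRNA gene was the last base of an intron. Of these, 36 lay at the end of a longer intron, 3 filled an intron from its first base to its last, and Mir7082, described further on, was longer than its intron. Another 2 began on the first base of an intron and stopped short of its end. In 43 of 43 loci the host encoded a protein and was transcribed in the same direction, whereas this held for 47 of the 58 other rows of the list. It also held for 143 of 145 unlisted loci of the block that the search could have named. An end at a splice site was found in 12 of the 58 other rows. An intron was filled in 4 of these 58 (6.9%), a share like that of the members, 3 of 43 (7%).

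The members that fill an intron are shown first, as RefSeq hairpins on GRCm38.p6, together with 1 hairpin of each tailed type, chosen after their values were seen. Capitals mark the listed mature miRNA.
Mir7068: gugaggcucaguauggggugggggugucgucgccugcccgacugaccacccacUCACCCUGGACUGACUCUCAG
Mir7091: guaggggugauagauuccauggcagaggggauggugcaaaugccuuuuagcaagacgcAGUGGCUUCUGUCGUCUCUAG
Mir7060: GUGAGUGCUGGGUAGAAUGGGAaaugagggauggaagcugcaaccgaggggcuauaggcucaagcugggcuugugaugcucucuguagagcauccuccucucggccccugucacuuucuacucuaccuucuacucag
Mir6910: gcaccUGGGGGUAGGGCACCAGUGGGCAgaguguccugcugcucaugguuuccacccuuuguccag
Mir6927: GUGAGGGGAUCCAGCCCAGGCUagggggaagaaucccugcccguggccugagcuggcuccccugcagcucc

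Mir7068, at chr8:72470016-72470089 on the minus strand, is the whole 74 nt of an intron of Cherp, which encodes a nuclear protein associated with splicing factors. Mir7091, at chrX:74274027-74274105 on the minus strand, is the whole 79 nt of an intron of Dnase1l1, a relative of DNase I. Mir7060, at chr7:127489251-127489387 on the plus strand, is the whole 137 nt of an intron of Fbrs, and was the longest miRNA gene among the members. All 3 hairpins begin with gu and end in ag, the letters of the 2 splice sites. The list named the 3p arm of Mir7068 and Mir7091, whose last base is the last of the intron, and the 5p arm of Mir7060, whose first base is the first of the intron.

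Mir6910, at chr10:79862587-79862652 on the plus strand, is a hairpin at the end of an intron. It takes up the last 66 nt of a 111 nt intron of Ptbp1, the polypyrimidine tract binding protein that regulates splicing, and 45 nt of the intron precede it. Mir6927, at chr11:97677060-97677130 on the plus strand, shows the opposite arrangement. It starts on the first base of an 88 nt intron of Mllt6, a chromatin-associated protein, and 17 nt of the intron follow it. The only other member of that kind was Mir6977 in Ptprs, a receptor tyrosine phosphatase, with 15 nt after it in a 79 nt intron.

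The one member with no end at a splice site was Mir7029 in Gcn1l1, whose product activates the kinase Gcn2 when amino acids are short. Its gene of 61 nt ran 7 nt past the end of the intron into the next exon. Mir7082 in Raver1, a partner of Ptbp1, came close to filling its intron: its 92 nt ended on the last base of an 88 nt intron and began 4 nt before the first. Among the 36 members at the end of a longer intron, the stretch of intron before the miRNA gene had a median of 533 nt and reached 3589 nt in Mybl2. For Mir7051 in Etfb the splice site depended on the transcript: its last base was the last of an intron in some transcripts, while the shortest intron around it, of 333 nt, ended 9 nt later. The host introns of all 43, taken as the shortest around each locus, ranged from 74 nt to 3655 nt, with a median of 450 nt. They were at most 100 nt long in 8 loci and longer than 1000 nt in 12. In 31 of the 43 loci the gene was intronic in every transcript that spans it. In 8 it lay mostly in an exon of some noncoding transcript of the host, in 2, in Pdlim7 and Elof1, mostly in a UTR of some transcript, and in the other 2, Mir7029 and Mir7082, across an exon-intron boundary.

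**Figure D1:**
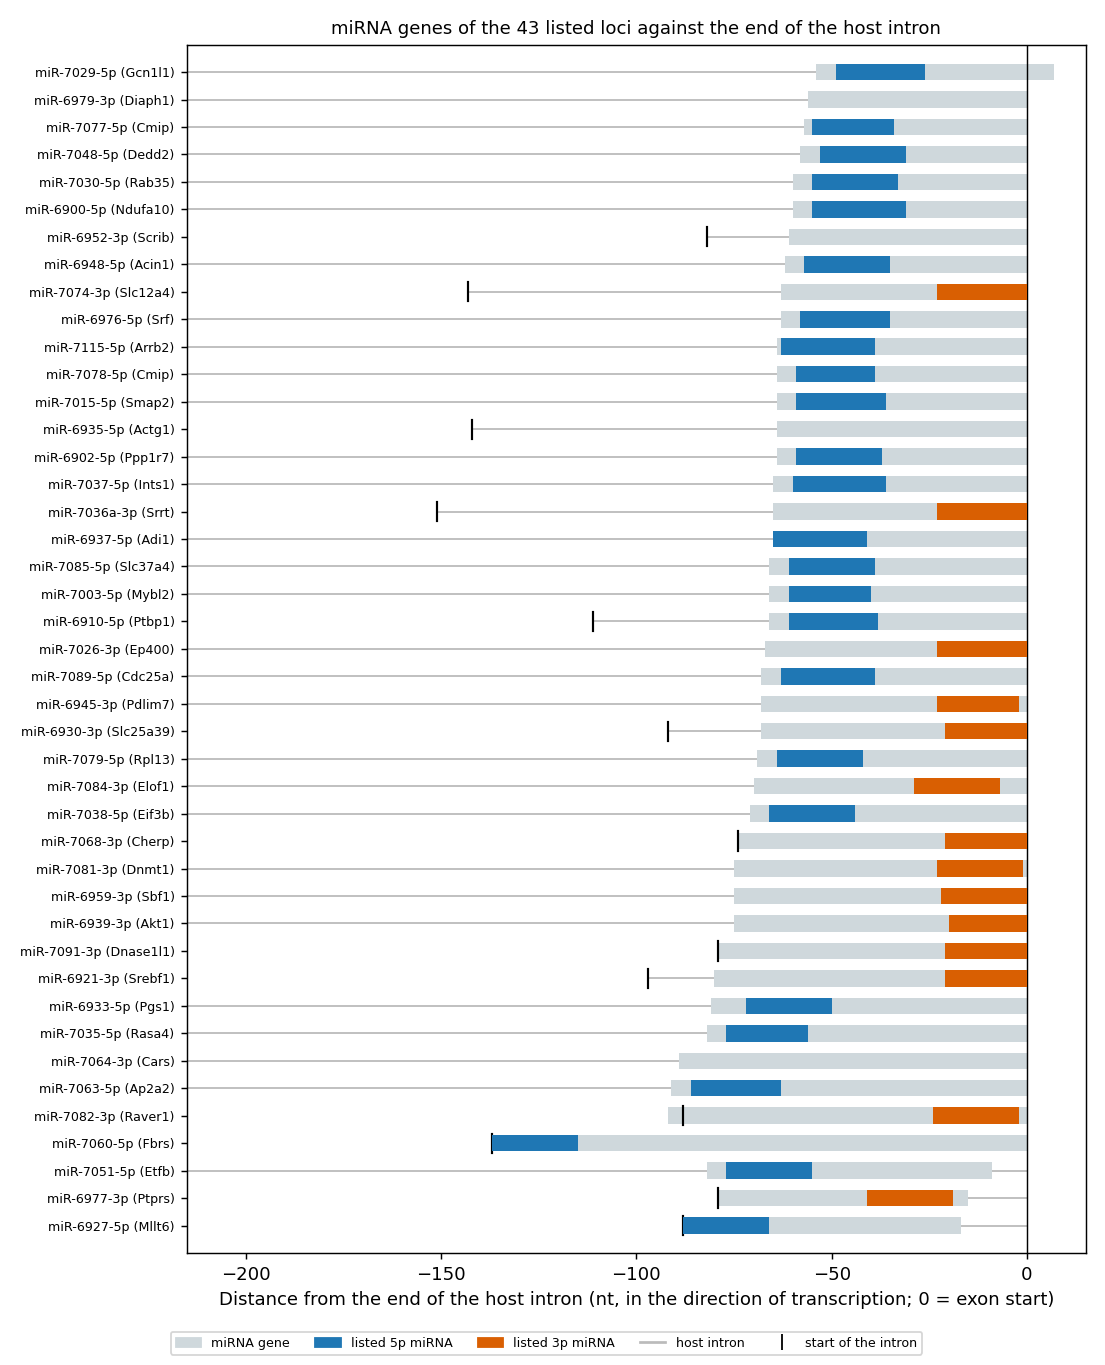
Position of each of the 43 miRNA genes (grey bars) relative to the end of the shortest host intron around it (x axis, nt, 0 being the start of the next exon), with the listed 5p (blue) or 3p (orange) miRNA where its sequence was at hand, the host intron as a thin line and a tick at its start where it lies within the plotted range. Of the 43 genes 39 end exactly at 0, 2 stop 17 nt and 15 nt before it, Mir7051 stops 9 nt before it, and Mir7029 runs 7 nt into the exon.

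The list's own columns were uniform for these loci. Identity was 100% in 43 of 43 rows, as in 58 of 58 other rows. The whole mature miRNA was matched in 43 of 43, against 55 of 58 other rows. Query and miRNA are both reference sequences, so this is a property of the annotation and not of reads. The aligned length was 20 to 24 nt with a median of 22 nt, the same median as in the other 58 rows, which ranged from 19 to 25 nt. Alignments of 20, 21, 22, 23 and 24 nt were found in 2, 10, 18, 8 and 5 rows. The query was 60 nt long in 40 of 43 rows and in 54 of 58 other rows. The other 3 members, Mir6979, Mir7077 and Mir7048, had queries of 56, 57 and 58 nt, the full length of their genes. With identity constant, the bit score followed the aligned length alone, from 40.1 for 20 nt to 48.1 for 24 nt, and E-values ran from 9.72e-07 down to 3.99e-09.

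The longest alignments, 24 nt, belonged to 5 members, and the shortest, 20 nt, to 2. They are shown with the seed, bases 2 to 8 of the mature miRNA, in capitals.
miR-6900-5p: uGCCAGGAgaagccuagagccguc
miR-6937-5p: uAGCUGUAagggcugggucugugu
miR-7037-5p: aAGGUGGCcacaggagaucauggu
miR-7089-5p: cCGUGGGAccuacagacuccuggg
miR-7115-5p: uCGGGGGUuguggugccgaauugu
miR-6939-3p: cCUCACUUgacccgcugcag
miR-7078-5p: uGUGGGUGguaggagacgcu

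All 5 of the longest were 5p arms, and all 5 genes ended on the last base of an intron. Mir6900 (chr1:92464483-92464542, minus strand) lies in a 2898 nt intron of Ndufa10, a subunit of respiratory complex I. Mir6937 (chr12:28679325-28679389, plus strand) lies in a 1492 nt intron of Adi1, an enzyme of methionine salvage. Mir7037 (chr5:139767879-139767943, minus strand) lies in a 540 nt intron of Ints1, a subunit of the Integrator complex that processes snRNAs. Mir7089 (chr9:109889643-109889710, plus strand) lies in a 580 nt intron of Cdc25a, a phosphatase that drives cell cycle entry. Mir7115 (chr11:70438255-70438318, plus strand) lies in a 290 nt intron of Arrb2, which encodes beta-arrestin 2, an adaptor that silences G protein-coupled receptors. Of the 2 shortest, Mir6939 (chr12:112659277-112659351, minus strand) lies in a 273 nt intron of Akt1, the kinase of growth factor and antigen receptor signalling. Mir7078 (chr8:117459265-117459328, plus strand) lies in a 2371 nt intron of Cmip.

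The subject frame, which gives the orientation of the match, was 1 in 19 rows (44.2%, 95% Wilson interval 30.4% to 58.9%) and -1 in 24, and in 43 of 43 rows it had the sign of the gene's strand. Among the other 58 rows it was 1 in 22 (37.9%), and it had the sign of the gene's strand in 58 of 58. The 5p arm was named in 26 rows (60.5%, 95% Wilson interval 45.6% to 73.6%) and the 3p arm in 17, against 17 5p arms among the 39 other rows that carry an arm (43.6%). At loci of the same numbers that are not listed, the miRNA that alone gave the longest match was a 5p arm in 82 of 126 (65.1%). These intervals take loci as independent and cover nothing else.

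Arm, frame and start in the query formed 3 sets. All 19 rows with frame 1 named the 5p arm, starting at positions 1 to 10 of the query, and 13 of the 19 started at position 6. All 17 3p arms had frame -1 and started at positions 1 to 8, 11 of them at position 1. The last 7 rows were 5p arms with frame -1, starting at positions 32 to 38. The query runs upwards in genomic coordinate, so a match at position 1 on the minus strand is the end of the miRNA gene, which in these loci is the end of the intron. Position 6 on the plus strand is the sixth base of the gene, and in 19 of the 25 5p members whose sequence was at hand, on either strand, 5 nt of the gene preceded the mature miRNA.

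**Figure D2:**
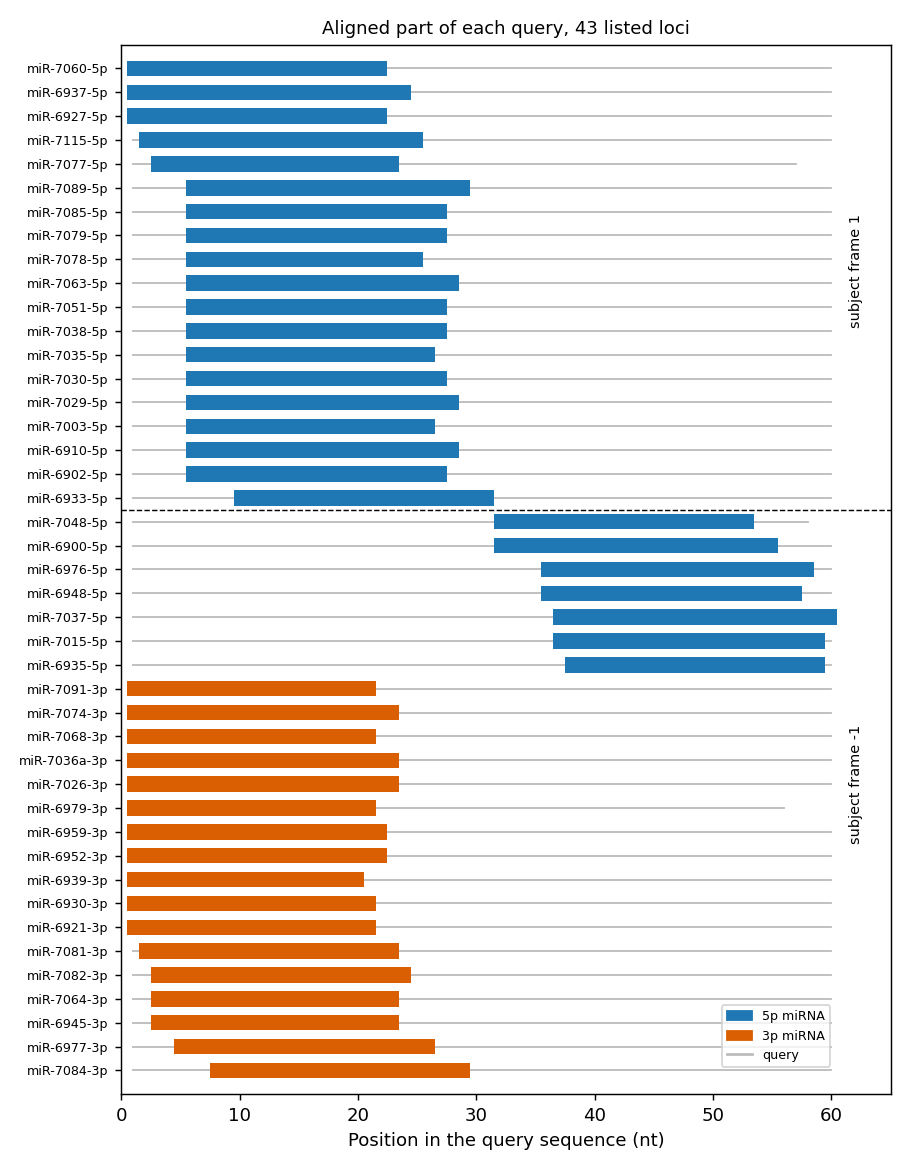
Aligned part of each query (x axis, position in nt) for the 43 rows, split by subject frame at the dashed line, with 5p arms in blue and 3p arms in orange on the query drawn as a grey line. The 19 rows with frame 1 are all 5p arms starting at position 10 or below, the 17 3p arms start at position 8 or below, and 7 5p arms with frame -1 start at position 32 or above.

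Which arm was named went with the length of the gene on the minus strand. As rebuilt from the query lengths and positions, the searched stretch was the first 60 nt from the lower genomic coordinate, which on the minus strand reaches the whole 5p arm only in short genes. The 7 minus-strand members listed with a 5p arm had genes of 58 to 65 nt. Of the 12 minus-strand members with genes over 65 nt, 0 were listed with a 5p arm, and of the 12 with genes of at most 65 nt 7 were. The other 5 of these short genes were listed with a 3p arm. At unlisted loci of the same numbers, the match that was alone the longest in the same stretch was a 5p arm in 1 of 31 longer and 24 of 32 shorter minus-strand genes, and in 57 of 63 plus-strand genes. In all 39 members whose sequence was at hand the listed arm was the longest match in the searched stretch, with the 2 arms tied in 2 of them. Whether the searched stretch set the named arm was not tested, and the list holds no measure of which arm was in the sequenced RNA.

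Mature sequences were found in the RefSeq table for 39 of the 43 members. The other 4 are miR-6935-5p, miR-6952-3p, miR-6979-3p and miR-7064-3p. The letters at the stated query positions equalled the mature sequence in 39 of 39. Of the 14 3p members with a sequence, 9 ended on the last base of the miRNA gene, which is the last base of the host intron, and these same 9 ended in AG. They are shown with the seed in capitals, apart from miR-6939-3p, which is shown above.
miR-6921-3p: uGACUACUccuugccucucag
miR-6930-3p: cUGGCCUCuccauacucccag
miR-6959-3p: cUGCACCGaccugcucucccag
miR-7026-3p: uGUGCUUUcuggucuuggcuuag
miR-7036a-3p: cCGUCCUCauccgcuccucccag
miR-7068-3p: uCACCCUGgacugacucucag
miR-7074-3p: uAGGCCUUcuccucucccugcag
miR-7091-3p: aGUGGCUUcugucgucucuag

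Their letters are those of the end of an intron. The hosts are Srebf1, the transcription factor of sterol and fatty acid synthesis, for miR-6921-3p, the mitochondrial carrier Slc25a39 for miR-6930-3p, Sbf1 for miR-6959-3p, the chromatin remodelling subunit Ep400 for miR-7026-3p, Srrt for miR-7036a-3p and the potassium-chloride cotransporter Slc12a4 for miR-7074-3p. The other 5 ended before the end of the gene. miR-7081-3p ended 1 nt before it, miR-6945-3p and miR-7082-3p 2 nt, miR-6977-3p 4 nt and miR-7084-3p 7 nt. The ending AG was thus found in 9 of 14 listed 3p miRNAs. Among the 44 3p miRNAs that alone gave the longest match at unlisted loci of the block it was found in 36 (81.8%), and among 20 3p miRNAs listed from outside the block in 3.

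The 2 arms differed in base composition. C and U together made up a median of 71.4% of the bases of the 14 listed 3p members (54.5% to 81.8%), and G 18.2% (9.09% to 30.4%). In the 25 listed 5p members C and U made up 36.4% (21.7% to 59.1%) and G 40.9% (13.6% to 54.5%). The lowest G content and the highest C and U content among these 5p members belonged to miR-6902-5p, from an intron of Ppp1r7, and no other 5p member had less than 27.3% G. A run of GGG was present in 17 of 25 listed 5p miRNAs and in 0 of 14 listed 3p miRNAs. Unlisted loci of the block had the same layout, with medians of 72.7% C and U for 44 3p miRNAs and 42.9% G for 81 5p miRNAs. Outside the block, the 20 listed 3p miRNAs had a median of 53.5% C and U. The 12 listed 5p miRNAs from outside the block were as rich in G as the members, with a median of 47.7% G and 30.9% C and U, and GGG was present in 7 of the 12. GC content was similar for both arms of the listed members, 60% for 5p and 61.4% for 3p.

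**Figure D3:**
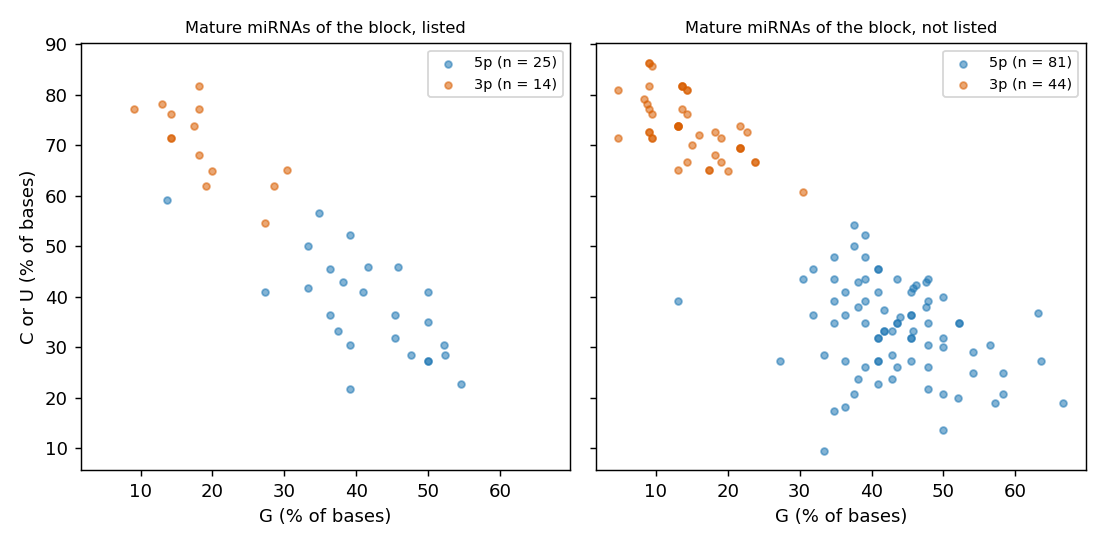
Share of G (x axis, % of bases) against the share of C or U (y axis, % of bases) in mature miRNAs of the block, listed (left) and alone the longest match at unlisted loci (right), each point being 1 miRNA, with 5p in blue and 3p in orange. In the left panel the 14 3p miRNAs lie at 54.5% C and U or above and the 25 5p miRNAs between 21.7% and 59.1%, and the right panel shows a like separation.

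The 39 seeds were all different, so no 2 members shared one. For 9 members another mature mouse miRNA in the RefSeq table had the same seed. Some of these were other numbers of the block: miR-7030-5p shared GGGGAGG with miR-7075-5p and miR-7076-5p, miR-7068-3p shared CACCCUG with miR-7018-3p and miR-7023-3p, miR-6927-5p shared UGAGGGG with miR-7070-5p, and miR-6945-3p shared CUGAGCU with miR-6927-3p, the other arm of a listed hairpin. miR-7079-5p, from Rpl13, shared GGGCUGA with miR-6911-5p, miR-7028-5p and miR-7662-5p. Older numbers were matched by miR-7003-5p, which has the seed GUGGGGA of miR-491-5p, by miR-7048-5p, with the seed GGGGCUG of miR-185-3p, by miR-7078-5p, with the seed GUGGGUG of miR-698-5p, and by miR-6948-5p, with the seed GUUCAGA of miR-743b-5p. A shared seed is a match of letters, and no target was measured. How often a seed is shared among all 1679 mature mouse miRNAs in RefSeq was not counted. The count of 9 therefore cannot be called high or low.

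Several hosts encode proteins that handle RNA. Besides Ptbp1, Raver1, Cherp and Ints1, these were Srrt, which links the cap-binding complex to miRNA processing and hosts Mir7036, and Acin1, a protein of splicing-dependent complexes, which hosts Mir6948. Translation was represented by Rpl13, a ribosomal protein of the large subunit that hosts Mir7079, Eif3b, a subunit of initiation factor 3 that hosts Mir7038, Cars, the cysteinyl-tRNA synthetase that hosts Mir7064, and Gcn1l1. Elof1, a transcription elongation factor, hosts Mir7084. These groupings were made after the hosts were known and stand for no test. Mir7038 (chr5:140427339-140427409, plus strand) lies at the end of a 264 nt intron of Eif3b.

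Hosts acting in the nucleus on DNA or transcription included Dnmt1, the maintenance DNA methyltransferase, Ep400, Mllt6, the transcription factors Srebf1 and Srf, and Mybl2, a regulator of cell cycle genes. Mir7081 (chr9:20914090-20914164, minus strand) lies at the end of a 1632 nt intron of Dnmt1. The mature miRNAs of these loci in Eif3b and Dnmt1, the textbook-list hosts whose sequences are not shown above, are given with the seed in capitals.
miR-7038-5p: uGUAGAAGgaagggcugcugug
miR-7081-3p: uUCCCCUGguauccuccucaca

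Mir6976 lies at the end of a 1501 nt intron of Srf. Mir7003 lies at the end of a 3655 nt intron of Mybl2, the longest host intron among the members.

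Signalling and membrane hosts were Akt1, Arrb2, Ptprs, Rasa4, a GTPase-activating protein for Ras, Rab35 and Smap2, which act in vesicle traffic, Ap2a2, a subunit of the AP-2 clathrin adaptor, Cmip, and Ppp1r7, a regulatory subunit of protein phosphatase 1. The cytoskeleton and cell shape were represented by Actg1, the gamma actin gene that hosts Mir6935, Diaph1, a formin, Scrib, a polarity protein, and Pdlim7. Metabolic and transport hosts were Ndufa10, Etfb, a subunit of the electron transfer flavoprotein, Adi1, Pgs1, an enzyme of cardiolipin synthesis, Slc25a39, Slc37a4, the glucose-6-phosphate transporter, and Slc12a4. The remaining hosts were Dedd2, a death effector domain protein, Sbf1, Fbrs and Dnase1l1. Cmip was the only host with more than 1 member, Mir7077 and Mir7078 in different introns of 803 nt and 2371 nt.

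Textbook gene lists were set against all hosts of the block. Of the loci there that the search could have named, 40 of 185 were listed (21.6%). The list of T cell receptor and lymphocyte signalling genes held 41 genes, of which 2, Lat and Arrb2, host a locus that the search could have named, and only Arrb2 hosts a member. Of 20 cell cycle and replication genes 2 host such a locus, Cdc25a and Pold1, and Cdc25a hosts a member. Of 21 RNA processing genes 1 does, Ints1, and it hosts a member. For chromatin and DNA methylation 2 of 13 genes do, and Dnmt1, not Chd4, hosts a member. For translation 2 of 9 do, and Eif3b, not Farsa, hosts a member. For respiration and core metabolism 3 of 12 do, and Ndufa10 and Adi1, not Acly, host members. Each list thus gave 1 or 2 member hosts out of 1 to 3 possible ones, and these counts carry no test. The lists were drawn up with earlier results of these data known, and they hold the hosts of all the longest alignments. A member host on each list is therefore no independent finding. Rpl13, Cars, Ptbp1, Srrt and Cherp also host members and are on none of the lists.

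Over the whole block 40 of 185 loci were listed. That share, 21.6% (95% Wilson interval 16.3% to 28.1%), counts the loci of the block that had a mature sequence at hand and at least 19 nt of it in the searched stretch. Outside the block 45 of 673 loci that met the same condition were listed (6.69%). Among loci with an end at a splice site, 39 of 176 were listed inside the block (22.2%) and 10 of 40 outside it (25%), while 35 of 633 loci away from intron ends and outside the block were (5.53%). The 95% Wilson intervals of the shares at intron ends, 16.7% to 28.9% inside the block and 14.2% to 40.2% outside it, overlap. Without read counts, a locus that is not listed may still have been present in either library.

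Within the block, listed and unlisted loci had similar positions. An end lay at a splice site in 39 of 40 listed loci (97.5%) and 137 of 145 unlisted loci (94.5%), and an intron was filled in 3 and 8. The miRNA gene had a median length of 66.5 nt in listed and 65 nt in unlisted loci, and the host intron 436.5 nt (quartiles 143 to 1128 nt) and 481 nt (116 to 1492 nt). The hairpins of listed loci had a median GC content of 58.9% (43.8% to 69%, 37 hairpins) and those of unlisted loci 56.5% (29.4% to 81.5%, 142 hairpins). The predicted minimum folding energy had a median of -28.1 kcal/mol in listed and -24.9 kcal/mol in unlisted hairpins, and per nucleotide -0.40 and -0.39 kcal/mol. The ranges overlapped for each of these measures, and the differences between medians were not tested.

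**Figure D4:**
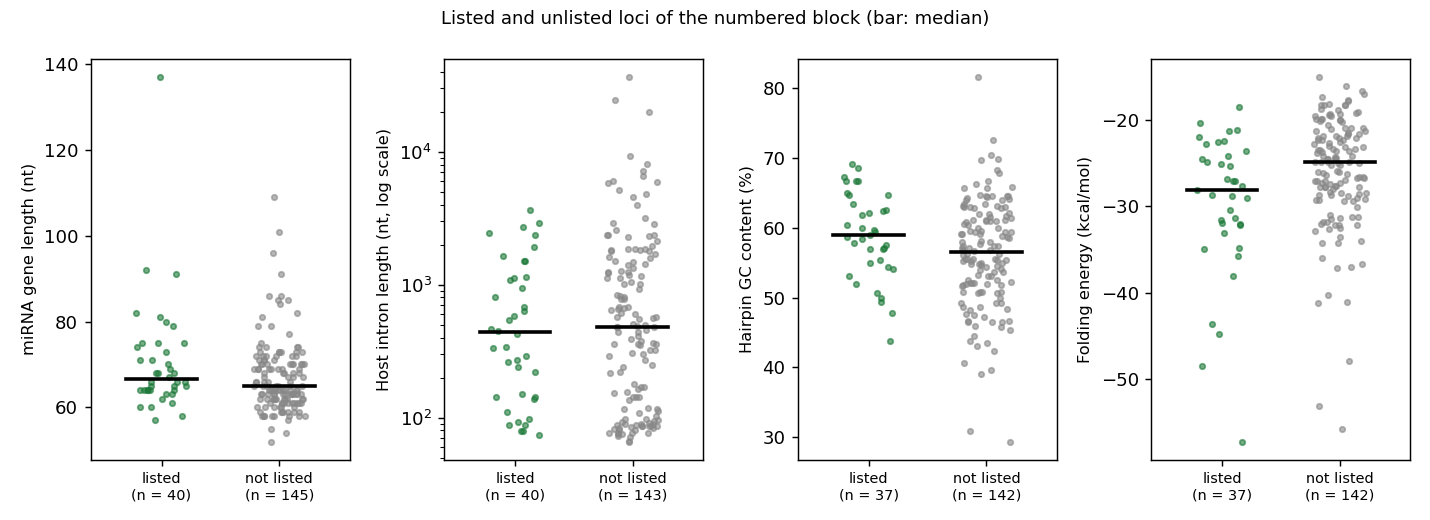
Length of the miRNA gene, length of the host intron (log scale), GC content and predicted minimum folding energy of the hairpin for listed and unlisted loci of the block, each point being 1 locus and the bar the median. The listed loci lie within or next to the spread of the unlisted ones on every axis, apart from the 137 nt gene Mir7060.

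A larger gap was seen for introns that some annotated transcripts keep. The miRNA gene lay wholly in an exon of a transcript annotated as retained intron in 7 of 40 listed loci (17.5%, 95% Wilson interval 8.75% to 31.9%) and in 10 of 145 unlisted loci (6.9%, 3.79% to 12.2%). The 7 hosts were Actg1, Rasa4, Srrt, Ints1, Cherp, Rpl13 and Arrb2. These intervals overlap, the feature was looked at after the members were known, and the difference was not tested. The host had some annotated retained-intron transcript in 31 of 40 listed and 98 of 145 unlisted loci (77.5% and 67.6%). Under the wider definition of an exon in any transcript, boundaries and UTRs included, 12 of 40 listed and 22 of 145 unlisted loci were exonic (30% and 15.2%).

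Nucleolin is known from work on ribosomal RNA to bind a short stem-loop element with the letters UCCCGA or close variants, and G-rich nucleic acids that can form quadruplexes. The RefSeq hairpins were searched on their own strand for CCCG preceded by U or G and followed by A or G. Of 37 listed hairpins of the block 1 held such a word, that of Mir7068 in Cherp, where it is preceded by G and followed by A, and of 142 unlisted ones 1 did. In all 1005 hairpins of the table the share was 4.38%. A run of GGGG was present in 18 of 37 listed and 59 of 142 unlisted hairpins (48.6% and 41.5%), against 29.7% of all hairpins. In the 41 hairpins listed from outside the block the CCCG word was present in 4 (9.76%) and GGGG in 20 (48.8%), a share like that of the members. A match of letters is not a binding site, and these shares were not tested.

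Of 3 miRNAs outside the block that are well known as mirtrons, miR-877 was listed, as its 3p arm, and miR-1224 and miR-702 were not.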

How the data were processed

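The authors deposited 1 table for the series, with no value per sample. Per the file headers it holds alignments of query transcripts to mature miRNAs, with identity and coverage in percent and an alignment score and bit score. Per the submitters' processing notes the build was mm9, while the design text names mm10. The deposit is named as a BLAST result, but the sources used here do not give the version, the settings or how transcripts were chosen. Transcript identifiers were matched to GENCODE M21 (GRCm38), and sequences came from RefSeq on GRCm38.p6. Positions count from 1. Each query was rebuilt as 60 nt of the gene counted upwards from its lower coordinate, or all of a shorter gene, which matched the query length in 43 of 43 rows. A host contains the whole locus, same strand first, protein-coding next, then the shortest. The intron is the shortest around the locus in any host transcript. Folding used RNAfold 2.7.2, other steps Python 3.11.15 with pandas 2.3.3, pysam 0.24.0 and scipy 1.17.1. Placement was tested on simulated loci. Members described in full were those filling an intron, those with the longest and shortest alignments, those sharing a seed with another member (none did) and those whose host is on a textbook list. Members, lists and settings were chosen with earlier results of these data known, and other loci were named after their values were seen. Both samples are single, so no test was run.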

Additional observations from a re-analysis of the deposited data

How the results depend on the processing

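Other settings were run for the number of rows, the 5p and frame shares, the median aligned and query lengths, the counts at an intron end and filling an intron, and the listed share of the block. These results kept within 1.5 times their value or inside their 95% Wilson interval under each setting run. Base composition, endings, seeds, folding energy, motif counts and retained-intron shares were computed under 1 setting. Requiring alignments of at least 22 nt left 31 of 43 rows, since 12 are shorter, and taking 1 row per host gene left 42. The 5p share ranged from 55.6% (numbers from miR-6896 to miR-7007) to 71% (at least 22 nt), and the share with frame 1 from 33.3% to 48.4%. The median aligned length stayed at 22 nt and the median query length at 60 nt. The count of members at an intron end was 42 with exact splice sites, with protein-coding transcripts only and with RefSeq transcripts, and 43 within 10 nt. The count filling an intron was 3, or 4 within 10 nt. The listed share of the block ranged from 21.3% (whole gene searched) to 21.6%. No paired analysis was possible because NCL and Input are single samples for which the list gives no measurement. Depth is unknown.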

Other observations

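By chromosome, the list named 5 of 10 loci of the block on chromosome 9, 7 of 17 on chromosome 5 and 0 of 12 on chromosome 19. These are extremes picked from the counts of all chromosomes, and over the whole block 40 of 185 were named (21.6%). On other chromosomes the list named, for instance, 6 of 20 on chromosome 11, 1 of 12 on chromosome 10, 0 of 7 on chromosome 3 and 0 of 5 on chromosome 6. Of the numbers up to miR-7007 it named 16 of 93 loci, and of the higher numbers 24 of 92. By length of the host intron, it named 7 of 39 loci in introns of at most 100 nt, 10 of 32 between 100 and 300 nt, 11 of 49 between 300 and 1000 nt, 11 of 47 between 1000 and 3000 nt and 1 of 16 in longer introns, which was Mir7003 in Mybl2. Srebf1 holds 2 loci of the block within reach of the search, of which 1 was listed, Ankrd52 holds 2, of which 0 were, and Cmip holds 2, of which both were. These counts are descriptions, and none was tested.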
